A study of Homo sapiens with 24 samples.

Results

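Nephrin (NPHS1), its partners KIRREL (also called NEPH1) and KIRREL2 (also called NEPH3 or filtrin), and podocalyxin (PODXL) are cell surface proteins best known from the podocyte, the kidney cell whose foot processes form the filtration slit. These 4 genes, of 14409 gene names listed in the study's 3 tables, were taken by name. They were selected on their measured expression change with Dox in Tet-PTF1a cells, so that their values in that comparison are given as a description and without a test. All 4 were listed in each table. The values come from sequencing of polyA RNA from Panc-1, a human cell line derived from a ductal carcinoma of the pancreas, in which the study asked whether the acinar bHLH factors MIST1 or PTF1a alter gene expression when they are switched on. The 3 lines were clones selected with puromycin that carried the Tet-One plasmid, which is activated by doxycycline (Dox), either empty (Tet-One) or with a myc-tagged open reading frame of rat MIST1 (Tet-MIST1) or mouse PTF1a (Tet-PTF1a). Each line was grown in serum without tetracycline and gave 4 libraries without Dox (Control) and 4 after treatment for 72 h with Dox at 1 µg/ml, which makes 6 groups and 24 libraries. The passage number was 32 for Tet-One and for Tet-PTF1a and 33 for Tet-MIST1, so that differences between lines cannot be told apart from differences between clones and passages.

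Nephrin spans the slit between neighbouring foot processes, where its immunoglobulin domains bind those of nephrin and of the KIRREL proteins on the opposite cell, and its tail recruits adaptors that reach the actin cytoskeleton. Podocalyxin is a heavily sialylated mucin of the CD34 family that coats the apical membrane of podocytes and of other epithelial cells and is tied to actin through ezrin and NHERF adaptors. PTF1A acts in a complex with an E protein and an RBPJ protein, which reads an E box and a TC box spaced by whole turns of the helix, and KIRREL2 and NPHS1 have been described as its targets in the developing nervous system.

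NPHS1 and KIRREL2 lie head to head on chromosome 19 (hg19), with NPHS1 at chr19:36316274-36342895 on the minus strand and KIRREL2 at chr19:36347810-36358048 on the plus strand. Their listed starts are 4914 bases apart, and no other gene of the tables begins between them. KIRREL is at chr1:157963063-158070052 on the plus strand and PODXL at chr7:131185021-131241376 on the minus strand. The listed exons of the 4 genes share no base with those of another listed gene, so that a neighbouring gene in the tables could not lend them its reads. The exons sum to 2993 bases in KIRREL2, 5024 in NPHS1, 7820 in KIRREL and 5984 in PODXL.

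The 250 bases before the start of KIRREL2 were read from GRCh37, the same build, to show the sequence from which this induced gene is transcribed. Capitals mark an E box (CANNTG) or a TC box core (TGGGAA), searched on both strands. The window is chr19:36347560-36347809 on the plus strand.
KIRREL2: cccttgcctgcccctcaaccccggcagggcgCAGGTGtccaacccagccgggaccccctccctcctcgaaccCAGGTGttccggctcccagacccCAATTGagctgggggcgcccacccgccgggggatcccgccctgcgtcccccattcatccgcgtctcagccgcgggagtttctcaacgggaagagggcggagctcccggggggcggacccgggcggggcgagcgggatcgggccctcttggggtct

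The KIRREL2 window held 3 E boxes, and its GC content was 73.6%. Over the 300 bases that also include the first 50 of the gene, an E box was present in 61.3% of 14253 promoters and the TC box core in 22.1%. The longer window of 1000 bases before to 100 after the start of KIRREL2 held 7 E boxes, and 97.8% of 14252 promoters held at least 1. How many promoters held as many E boxes as KIRREL2 was not counted. The windows of the other 3 genes are not described here, so that nothing about the induced genes as a group can be read from this one.

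The interval shared by NPHS1 and KIRREL2 was searched in full, because either gene could be read from it. It held 37 E boxes, among them 6 of the form CAGCTG and 5 of the form CATCTG, and 7 TC box cores. Of 14248 windows of the same length before listed starts, 99.99% held an E box and 98.4% a TC box core. CAGCTG was present in 84.7% of them and CATCTG in 94.8%. How many windows held as many matches was not counted. In 3 places an E box and a core had midpoints 10 to 12 or 20 to 22 bases apart. They are shown on the plus strand with 30 bases on each side and with the E box and the core in capitals, from chr19:36345925-36346010, chr19:36346039-36346124 and chr19:36347032-36347108.
pair A: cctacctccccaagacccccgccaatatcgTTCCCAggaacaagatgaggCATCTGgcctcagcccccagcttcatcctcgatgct
pair B: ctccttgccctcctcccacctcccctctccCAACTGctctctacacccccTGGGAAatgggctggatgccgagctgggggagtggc
pair C: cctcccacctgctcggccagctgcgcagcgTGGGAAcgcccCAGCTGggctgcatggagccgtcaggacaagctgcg

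The core of pair A lies 1855 bases before the start of KIRREL2, is read as TTCCCA on this strand, and stands 20 bases from a CATCTG. The core of pair B lies 1721 bases before that start, 20 bases from a CAACTG, and is the only one of the 3 that goes on to TGGGAAA. The core of pair C lies 748 bases before it, 11 bases from a CAGCTG. Of 14248 windows of the same length before the starts of other listed genes and these, 30.4% held at least 1 such pair and 1.10% held 3 or more. The pair with the shorter core TGGGAA was added after the data were seen, and the limit of 3 is the count found here. Both shares are therefore a description. With TGGGAAA required, the interval held 1 pair, and 5.61% of the windows held at least 1. These are matches of letters, and binding was not measured here.

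**Figure D1:**
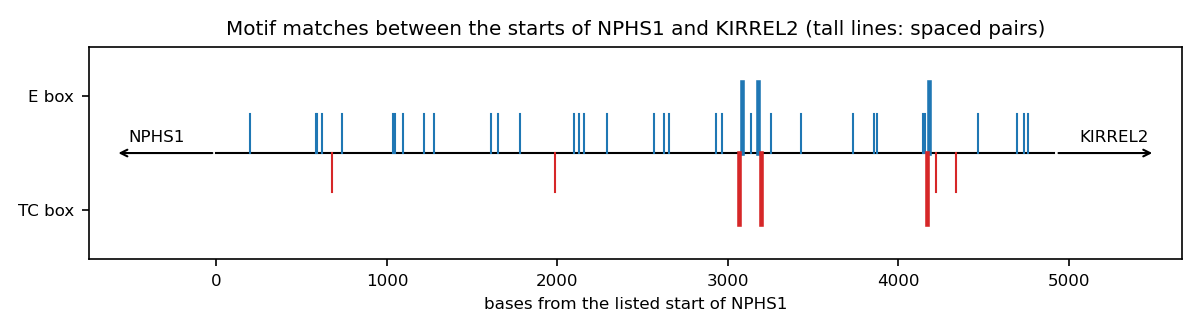
Positions of E boxes (up, blue) and TC box cores (down, red) between the listed starts of NPHS1 and KIRREL2, in bases from the start of NPHS1, with arrows for the direction of each gene. Tall thick lines mark the 3 spaced pairs, whose cores lie 3060, 3194 and 4167 bases from NPHS1, nearer to KIRREL2.

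The libraries held from 17210989 to 43018494 counted reads. Tet-One Dox replicate 1 stood apart from its group: it was the separate lowest of the 4 libraries for 12.7% of 13101 genes and the separate highest for 15.5%, where no other of the 24 libraries exceeded 2.56% and 1.45%, both reached by Tet-MIST1 Dox replicate 1. Fits of the 4 genes that rest on either are given without it as well. Levels, ratios, correlations and permutation tests include both libraries unless stated. Human PTF1A had 0 to 2 reads in the Tet-PTF1a Control libraries and 53 to 168 in the Dox libraries, although the transgene is of mouse. All 6 ductal carcinoma markers examined were listed in every table, with summed CPM from 1700 to 8102, while of 14 leukocyte, endothelial, fibroblast and neuronal markers 3 were listed in every table, summing to at most 1.65 CPM for PDGFRB, 1.396 for CD14 and 9.76 for SYT1. With Dox, SYT1 rose in Tet-PTF1a from 6.70 to 9.15 CPM (log2 0.44, edgeR FDR = 1.03e-05) and CD14 was lower (-0.67). CD14 ran from 0.566 to 0.761 CPM in Control and from 0.283 to 0.517 in Dox, on 6 to 29 reads a library. It met the filter of 0.5 CPM in 4 libraries only with its Control libraries, so that its value is a description. PDGFRB rose in Tet-MIST1 (0.58, edgeR FDR = 0.0366). The part of these 3 genes in the results below was not tested. WT1 and SYNPO, which podocytes also express, were listed in all 3.

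KIRREL2 and NPHS1 were 11.8-fold and 16.3-fold higher, PODXL was 8.01-fold higher, and KIRREL was slightly lower, in Tet-PTF1a cells with Dox. Levels are given as the CPM that the authors deposited, that is, counts divided by a scaled library size. In bulk RNA, more cells that express a gene and more RNA per cell cannot be told apart.

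KIRREL2 was at 9.36, 9.86, 10.7 and 9.53 CPM in Tet-PTF1a Control replicates 1 to 4 and at 110.3, 115, 119 and 118 CPM in the Dox replicates. The lowest Dox library lay far above the highest Control library. The means were 9.85 ± 0.582 and 115 ± 3.74 CPM (SD, n = 4), and the fitted log2 fold change was 3.56 (SE 0.042).

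NPHS1, at a much lower level, was at 0.802, 1.06, 1.14 and 0.8135 CPM in Control and at 16.02, 16.3, 16.9 and 14.9 CPM in Dox. All Dox libraries were again above all Control libraries, and the Control values rest on only 19 to 34 reads a library, against 279 to 490 with Dox. The means were 0.955 ± 0.173 and 16.04 ± 0.839 CPM (SD, n = 4), and the log2 fold change was 4.03 (SE 0.11).

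PODXL was at 28.3, 26.9, 28.7 and 28.9 CPM in Control and at 223, 226, 231 and 229 CPM in Dox. Within each group the libraries differed little and the groups did not overlap. The means were 28.2 ± 0.890 and 227 ± 3.53 CPM (SD, n = 4), and the log2 fold change was 3.00 (SE 0.031).

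KIRREL, by contrast, was at 107, 111, 112 and 109.5 CPM in Control and at 95.0, 90.9, 91.5 and 95.1 CPM in Dox. Here all Dox libraries were below all Control libraries. The means were 109.9 ± 2.31 and 93.1 ± 2.27 CPM (SD, n = 4), and the log2 fold change was -0.23 (SE 0.029). The Dox and Control libraries did not overlap for any of the 4 genes, and the same was true of 42.3% of the 14053 genes in this table.

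**Figure D2:**
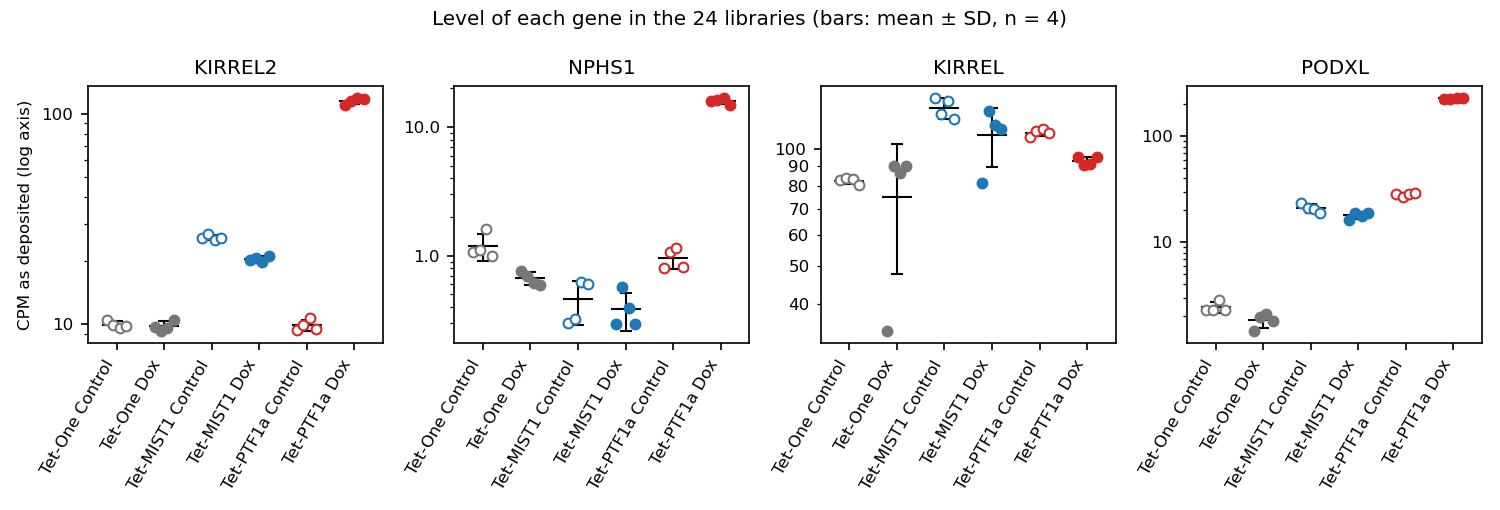
CPM as deposited (log axis) of KIRREL2, NPHS1, KIRREL and PODXL in each library, with open circles for Control, filled circles for Dox, and bars for the mean ± SD of 4 libraries. In Tet-PTF1a the Dox libraries of KIRREL2 (110.3 to 119 CPM), NPHS1 (14.9 to 16.9) and PODXL (223 to 231) stand above every other library of the gene, and 1 Tet-One Dox library of KIRREL, at 34.0 CPM, stands below all others.

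Per kb of exon, which allows levels of different genes to be compared, KIRREL was the most abundant of the 4 in Tet-PTF1a Control cells, at 14.1 ± 0.296 CPM per kb (SD, n = 4). PODXL followed at 4.71 ± 0.149, KIRREL2 at 3.29 ± 0.194 and NPHS1 at 0.190 ± 0.035 CPM per kb. With Dox, KIRREL2 reached 38.6 ± 1.25 and PODXL 38.0 ± 0.591 CPM per kb, while KIRREL was at 11.9 ± 0.291 and NPHS1 at 3.19 ± 0.167. KIRREL and KIRREL2 encode alternative partners of nephrin. KIRREL2 made up 18.97% ± 0.615 of their sum per kb in Tet-PTF1a Control cells and 76.4% ± 0.866 in Dox cells (SD, n = 4). In the Control cells of the other lines its share was 23.9% ± 0.731 in Tet-One and 34.7% ± 1.75 in Tet-MIST1.

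KIRREL2, which was higher with Dox in Tet-PTF1a cells, fell in Tet-MIST1 cells to 0.797 of its Control level by the fit. PODXL and KIRREL did not pass the test, and NPHS1 was too low to be fitted. KIRREL2 was at 25.8, 26.7, 25.1 and 25.7 CPM in Tet-MIST1 Control replicates and at 20.2, 20.6, 19.8 and 21.2 CPM in Dox replicates. The groups did not overlap, which held for 26.7% of the genes in this table. The means were 25.8 ± 0.666 and 20.4 ± 0.598 CPM (SD, n = 4), and the log2 fold change was -0.33 (SE 0.048; edgeR quasi-likelihood FDR = 0.000789). Without Dox replicate 1 it was -0.32 (edgeR FDR = 7.04e-05). It was the 1 call among the 3 genes tested here, where 20.6% of 13623 genes were called and 8.77% were repressed.

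PODXL was at 23.7, 21.1, 20.4 and 18.8 CPM in Tet-MIST1 Control and at 16.3, 19.1, 17.8 and 18.8 CPM in Dox. The groups overlapped, the log2 fold change was -0.21 (SE 0.076), and the edgeR FDR was 0.0634 (-0.17 and 0.0603 without Dox replicate 1). KIRREL was at 135, 122, 133 and 119 CPM in Control and at 81.6, 125, 115 and 112 CPM in Dox, with a log2 fold change of -0.22 (SE 0.10; edgeR FDR = 0.148). Its lowest value was in Dox replicate 1, and without that library the log2 fold change was -0.11 (edgeR FDR = 0.114). NPHS1 was at 0.298, 0.323, 0.6245 and 0.604 CPM in Control and at 0.296, 0.568, 0.3925 and 0.293 CPM in Dox, on 10 to 27 reads a library. It was below the limit for the fit, the groups overlapped, and the exact permutation test, two-sided, gave p = 0.514 (adjusted 0.754 over 12 tests) with a smallest possible p of 0.0286.

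Dox alone, in Tet-One cells with the empty plasmid, gave no call for any of the 4 genes. KIRREL2 was at 10.4, 9.89, 9.55 and 9.83 CPM in Tet-One Control and at 9.72, 9.27, 9.60 and 10.5 CPM in Dox. Its groups overlapped, and the log2 fold change was -0.018 (SE 0.073; edgeR FDR = 0.944). NPHS1 was at 1.07, 1.105, 1.60 and 0.986 CPM in Control and at 0.764, 0.690, 0.6165 and 0.590 CPM in Dox. All 4 Dox libraries were below all Control libraries, which held for PODXL too. Dox and Control libraries lay apart, in either direction, for 2.49% of the genes in this table. The log2 fold change of NPHS1 was -0.79 (SE 0.19; edgeR FDR = 0.897), on 21 to 66 reads a library.

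PODXL was at 2.30, 2.32, 2.87 and 2.27 CPM in Tet-One Control and at 1.45, 1.965, 2.12 and 1.83 CPM in Dox, with a log2 fold change of -0.39 (SE 0.14; edgeR FDR = 0.897). KIRREL was at 83.1, 84.2, 83.3 and 80.4 CPM in Control and at 34.0, 90.3, 86.4 and 90.4 CPM in Dox. Only replicate 1, the library that stood apart, was below the Control libraries, and the other 3 were above them. The log2 fold change of KIRREL was -0.13 (SE 0.27; edgeR FDR = 0.898) with that library and 0.10 (SE 0.041; edgeR FDR = 0.323) without it. Without it NPHS1 was at -0.86 (edgeR FDR = 0.141), PODXL at -0.30 (edgeR FDR = 0.364) and KIRREL2 at -0.020 (edgeR FDR = 0.938). By edgeR 0 of 13428 genes were called in Tet-One and 401 had an unadjusted p under 0.05, and by DESeq2 0 were called and 472 were under 0.05. Without Dox replicate 1, edgeR called 1 of 13407 genes.

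**Figure D3:**
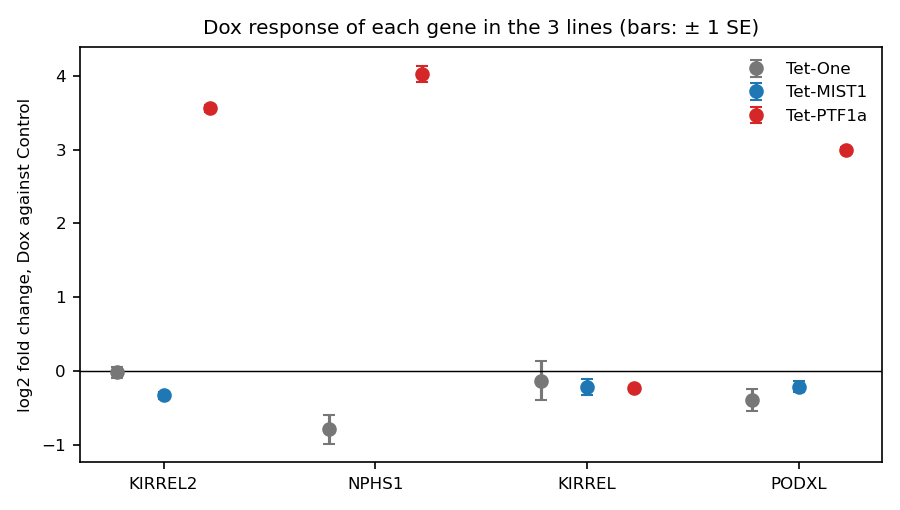
Log2 fold change of Dox against Control for each gene in Tet-One (grey), Tet-MIST1 (blue) and Tet-PTF1a (red), with bars of ± 1 SE. NPHS1 in Tet-MIST1 was below the limit for the fit and is not drawn. The Tet-PTF1a points, on which the genes were selected, are at 4.03 for NPHS1, 3.56 for KIRREL2, 3.00 for PODXL and -0.23 for KIRREL.

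The difference between the Dox responses of Tet-MIST1 and Tet-One was tested with an interaction term for Dox and line, fitted on 16 libraries. KIRREL2 responded lower in Tet-MIST1 by -0.32 (log2, SE 0.074; edgeR FDR = 0.0397), the 1 call among the 4 genes, where 1.66% of 13879 genes were called. The call was lost, with FDR from 0.0527 to 0.0968, without any 1 library other than Tet-One Control replicate 1, Tet-One Dox replicate 1 or Tet-One Dox replicate 2, and without these it was 0.0441, 0.0170 and 0.0390. The differences of NPHS1 (0.58, edgeR FDR = 0.658), PODXL (0.18, edgeR FDR = 0.798) and KIRREL (-0.092, edgeR FDR = 0.977) did not pass the test. Without Tet-One Dox replicate 1 the differences of KIRREL, NPHS1 and PODXL were -0.32, 0.66 and 0.093 (edgeR FDR = 0.0955, 0.236 and 0.690). Without Tet-MIST1 Dox replicate 1 they were 0.022, 0.68 and 0.22 (edgeR FDR = 0.995, 0.582 and 0.696).

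The lines differed in these genes before any Dox was added. With the 24 libraries scaled together, PODXL was at 2.48 ± 0.298 CPM in Tet-One Control, 21.3 ± 2.05 in Tet-MIST1 Control and 27.4 ± 0.883 in Tet-PTF1a Control cells (SD, n = 4). Between Tet-MIST1 and Tet-One Control cells, PODXL was higher by 3.07 (log2, SE 0.090; edgeR FDR = 3.37e-16), KIRREL2 by 1.37 (SE 0.051; edgeR FDR = 8.76e-15) and KIRREL by 0.61 (SE 0.043; edgeR FDR = 1.12e-10), while NPHS1 was lower, at -1.296 (SE 0.24; edgeR FDR = 3.72e-05). All 4 were called, as were 80.2% of the 13825 genes tested between these lines. NPHS1 rests on 12 to 27 reads a library in Tet-MIST1 Control and 39 to 66 in Tet-One Control. It met the filter of 0.5 CPM in 4 libraries only with those of Tet-One, the group where it was higher. Without a filter on low counts it was at -1.30 (edgeR FDR = 3.72e-05).

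On the same joint scale KIRREL2 was highest in Tet-PTF1a Dox (112 ± 3.72 CPM), then in Tet-MIST1 Control (26.2 ± 0.648), then in Tet-MIST1 Dox (20.9 ± 0.584), with no overlap between these groups or with the next. Tet-One Control (10.1 ± 0.395), Tet-One Dox (9.97 ± 0.541) and Tet-PTF1a Control (9.58 ± 0.527) followed and overlapped. NPHS1 was highest in Tet-PTF1a Dox (15.6 ± 0.817 CPM), and each of the other groups, from Tet-One Control (1.21 ± 0.288) down to Tet-MIST1 Dox (0.397 ± 0.131), overlapped the next in order. PODXL went from Tet-PTF1a Dox (221 ± 3.596 CPM) through Tet-PTF1a Control, Tet-MIST1 Control, Tet-MIST1 Dox (18.4 ± 1.20) and Tet-One Control to Tet-One Dox (1.88 ± 0.287), and only the Tet-MIST1 groups overlapped. KIRREL was highest in Tet-MIST1 Control (129 ± 8.06 CPM), which overlapped Tet-MIST1 Dox. Tet-MIST1 Dox overlapped Tet-PTF1a Control through replicate 1 alone, at 84.3 CPM, with its other libraries at 128, 118 and 115 CPM. Tet-PTF1a Control did not overlap Tet-PTF1a Dox, the next in order. Tet-PTF1a Dox (90.4 ± 2.12 CPM), Tet-One Control (84.3 ± 1.83) and Tet-One Dox (76.7 ± 28.0) came last. The place of Tet-One Dox rests on replicate 1, at 34.8 CPM on this scale. The other 3 libraries of KIRREL there were at 91.8, 88.0 and 92.0 CPM, above Tet-One Control and within reach of Tet-PTF1a Dox, which ran from 88.3 to 92.4 CPM. The Tet-PTF1a groups are those on which the genes were selected. In the other lines the means of PODXL ran from 1.88 to 21.3 CPM and those of KIRREL from 76.7 to 129 CPM.

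Across the 24 libraries the log2 CPM of KIRREL2 had a Pearson correlation of 0.835 with PODXL and 0.727 with NPHS1, and that of NPHS1 and PODXL was 0.621. KIRREL gave 0.142 with KIRREL2, 0.369 with PODXL and -0.225 with NPHS1. These libraries share 3 lines and the Dox response by which the genes were chosen, so that the values describe the data only. Among 12963 genes above a mean of 1 CPM and listed in all tables, those most like KIRREL2 were FBN3, a fibrillin (0.962), FAM174B (0.954) and LYPD5 (0.950). Those most like NPHS1 were BMP8A, a BMP ligand (0.967), HEYL, a bHLH repressor of the Notch pathway (0.967), and AGAP2 (0.961). Those most like PODXL were B3GNT5, a glycolipid glycosyltransferase (0.991), MGAT4A, which branches N-glycans (0.986), and LGALS8, a galectin (0.985). Those most like KIRREL were TOP3A, a topoisomerase (0.967), ANKFY1, an endosomal protein (0.967), and MYOF, myoferlin (0.961).

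Of the 26 other listed genes with a body within 250 kb of NPHS1 and KIRREL2, 24 were tested in Tet-PTF1a, of which 3 rose and 5 fell. Of all 14053 genes tested, 48.2% were called, 23.8% induced and 24.4% repressed, and with library size scaling in place of TMM factors the split was 4392 induced and 2698 repressed in place of 3344 and 3431. The median log2 fold change of the neighbours was 0.0068, against 0.0014 over all genes. APLP1, an amyloid precursor-like protein gene that begins 1352 bases past the end of KIRREL2 on the same strand, rose from 74.1 ± 1.83 to 120.4 ± 4.49 CPM (SD, n = 4), which is 0.70 on the log2 scale (SE 0.030; edgeR FDR = 1.22e-25). LRFN3 (0.19) and RBM42 (0.13) also rose. UPK1A, a uroplakin gene (-0.48) whose reads cannot be told from those of UPK1A-AS1 without strand, IGFLR1 (-0.30), ARHGAP33 (-0.19), PSENEN, a subunit of gamma-secretase (-0.18), and WDR62 (-0.11) fell. HAUS5, KMT2B, NFKBID, UPK1A-AS1, COX6B1, ETV2, ALKBH6, THAP8, U2AF1L4, POLR2I, SDHAF1, LIN37, PROSER3, LOC101927572, CLIP3 and HSPB6 were not called. Without Tet-PTF1a Control replicate 3 or Dox replicate 4, the count of neighbours that rose was 5.

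In Tet-MIST1 cells all 26 neighbours were tested, of which 4 rose and 2 fell, where 11.9% of all genes were induced and 8.77% repressed. APLP1 rose there too, by 0.41 (SE 0.047; edgeR FDR = 1.30e-04), next to the fall of KIRREL2. IGFLR1 (0.53), PSENEN (0.39) and LRFN3 (0.27) rose, and PROSER3 (-0.34) and HAUS5 (-0.16) fell. HCST and SYNE4, which were not in the Tet-PTF1a table, were not called. The count that fell was 0 without Tet-MIST1 Control replicate 1 or 3 or Dox replicate 3, and 1 without Control replicate 2 or 4. None of the 26 was called in Tet-One by edgeR.

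**Figure D4:**
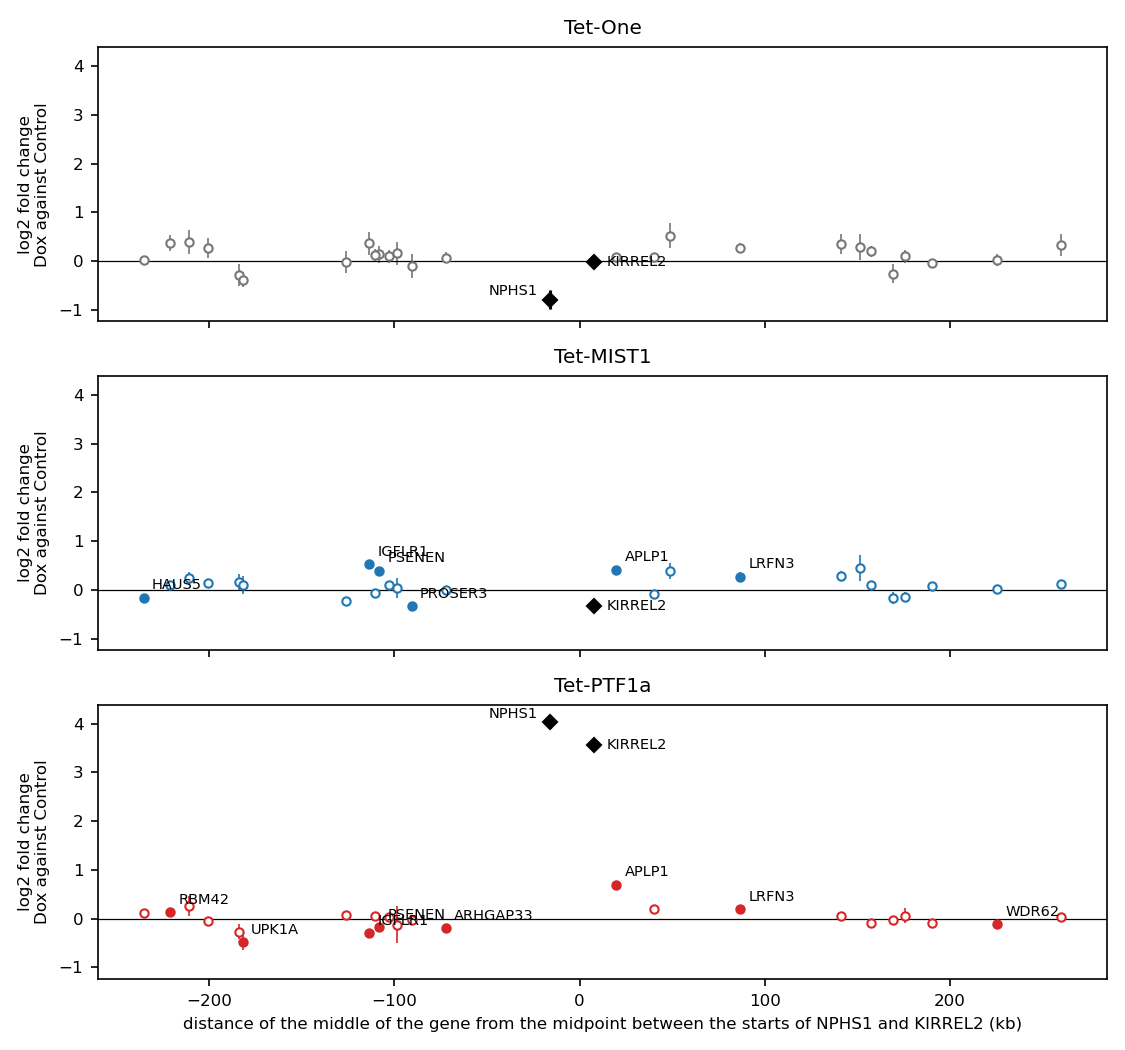
Log2 fold change of Dox against Control (± 1 SE) of NPHS1 and KIRREL2 (black diamonds) and of the listed genes with a body within 250 kb (circles, filled and named where called), against the distance in kb of the middle of each gene from the midpoint between both starts. NPHS1 and KIRREL2 were selected on their Tet-PTF1a values (4.03 and 3.56), and among the neighbours in that panel the values run from -0.48 for UPK1A to 0.70 for APLP1 where called.

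Of 24 genes whose proteins dock on the tail of nephrin or build the slit diaphragm, 21 were tested in each line. In Tet-PTF1a cells 6 rose, 5 fell and 10 were not called, near the 48.2% called over all genes, with a median log2 fold change of 0.012 and a median size of 0.080 against 0.12 over all genes. FYN, the kinase that phosphorylates nephrin, rose by 0.80 (SE 0.088; edgeR FDR = 5.71e-11), SYNPO, the actin-binding synaptopodin, by 0.71 (SE 0.038; edgeR FDR = 1.04e-20), and the polarity gene PARD6B by 0.29. PLCE1, a phospholipase, fell by 0.85 on the log2 scale (SE 0.027; edgeR FDR = 4.69e-31), and the scaffold gene MAGI2 (-0.22) and PIK3R1, a PI3-kinase subunit (-0.20), fell less. CD2AP, an adaptor that binds nephrin, rose from 178 to 199 CPM, or by 0.16 in log2. In Tet-MIST1 cells FYN (0.34) and ARRB2, a beta-arrestin gene (0.27), rose, and IQGAP1 (-0.25) and the adaptor NCK2 (-0.17) fell. Over all genes 11.9% were induced there and 8.77% repressed. The count that fell in Tet-MIST1 was 0 without Control replicate 1, 3 or 4 or Dox replicate 3 or 4, 1 without Control replicate 2, and 5 without Dox replicate 1.

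Among relatives and partners of podocalyxin, 3 of 13 genes tested rose and 4 fell in Tet-PTF1a cells, again near the 48.2% called over all genes, with a median log2 fold change of 0.0064 against 0.0014. SYTL4 (0.92) and SYTL2 (0.86), synaptotagmin-like effectors of Rab27, rose, as did RAB27A itself (0.18). CD34, the relative of podocalyxin, fell from 9.77 to 4.03 CPM, or by -1.25 in log2 (SE 0.099; edgeR FDR = 1.84e-14), and the membrane-actin linkers MSN (-0.23) and EZR (-0.18) fell slightly. PODXL2, the other relative, was at 28.4 and 29.5 CPM (log2 fold change 0.065, edgeR FDR = 0.257). In Tet-MIST1 cells RAB27A (0.37) and the NHERF genes SLC9A3R1 (0.29) and SLC9A3R2 (0.29) rose, and MSN (-0.23) and SYTL2 (-0.15) fell. That count of 2 was 0 without Control replicate 1, 2, 3 or 4 or Dox replicate 3, and 1 without Dox replicate 2 or 4. Over all genes in Tet-MIST1, 11.9% were induced and 8.77% repressed.

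Other adhesion genes of the immunoglobulin superfamily gave 13 rises and 7 falls among 26 tested in Tet-PTF1a cells, where 23.8% of all genes were induced and 24.4% repressed. Their median log2 fold change was 0.18 against 0.0014 over all genes, and the median size 0.34 against 0.12. NRCAM, counted among the 13 rises, went from 0.182 to 1.17 CPM (log2 fold change 2.14, SE 0.31) on 2 to 34 reads a library. It passed the filter through its Dox libraries alone, so that it could be called only as a rise. Its value is therefore a description. CADM2 (0.83) and DSCAML1 (0.61) came next among the rises. DSCAML1 went from 0.600 to 0.930 CPM on only 8 to 33 reads a library, and its groups overlapped (SE 0.25, edgeR FDR = 0.0215). CLMP (-1.07), BCAM, the Lutheran antigen (-0.98), and ICAM1 (-0.53) fell. In Tet-MIST1 cells 2 of 20 rose, CLMP (0.52) and F11R (0.15), and 3 fell, CADM1 (-0.24), JAM3 (-0.22) and CXADR (-0.15). Over all genes 11.9% rose there and 8.77% fell. The count that rose was 1 without any of the Tet-MIST1 Control replicates or Dox replicate 3, and the count that fell was 0 without Control replicate 1 and 1 without Control replicate 2 or 3 or Dox replicate 3 or 4.

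Of the podocyte transcription factor genes 4 of 6 were tested. LMX1B (0.36) and FOXC1 (0.33) rose and FOXC2 (-0.37) fell in Tet-PTF1a cells, while WT1 was at 8.10 and 7.65 CPM (log2 fold change -0.054, edgeR FDR = 0.605). Of all genes tested in that line, 23.8% were induced and 24.4% repressed. WT1 rose in Tet-MIST1 cells from 14.3 to 16.6 CPM (log2 fold change 0.22, edgeR FDR = 0.0310), a call lost without Control replicate 2, 3 or 4 or Dox replicate 3 or 4. Of 10 other genes known as neural targets of PTF1A, 4 were tested in Tet-PTF1a cells, where 24.4% of all genes were repressed. GAD1, which makes GABA (-0.67), TFAP2A (-0.52) and PAX2 (-0.27) fell and LHX1 was not called (0.27, edgeR FDR = 0.418). None of those tested was called in Tet-MIST1. In Tet-One no gene of these lists was called by edgeR. The ductal keratins moved as well in Tet-PTF1a cells: KRT8 (-1.295), KRT18 (-1.10) and KRT19 (-1.07) fell and KRT7 (1.64) rose, and their part in the results above was not tested.

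**Figure D5:**
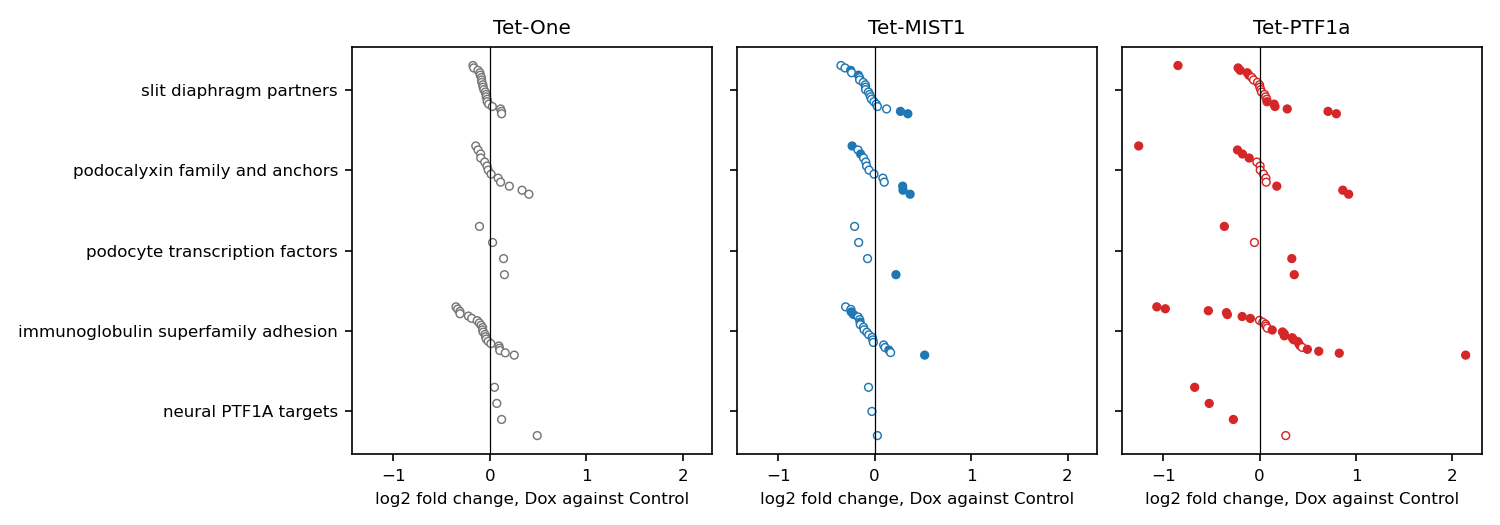
Log2 fold change of Dox against Control of the tested genes of each list in Tet-One, Tet-MIST1 and Tet-PTF1a, filled where the edgeR FDR was under 0.05. In Tet-PTF1a the values run from -1.25 for CD34 to 2.14 for NRCAM, which passed the filter through its Dox libraries alone. No point is filled in Tet-One.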

How the data were processed

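The 4 genes and all lists were chosen with earlier results of these data known. RNA (miRNeasy) was sequenced in paired ends. The authors aligned reads to hg19 with TopHat and filtered genes on expression above 0.5 CPM in 4 or more samples. The submitters' processing notes also name HTSeq, DESeq and edgeR. The counter's use of strand is not given in the sources used here. The deposited counts are whole, unnormalized reads. Beside them the authors deposited CPM, a signal scaled to library size, and their own fold changes, p-values and FDR, which were not used.

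Within each line, counts were fitted with edgeR 4.0.16 in R 4.3.3 (quasi-likelihood, robust, TMM, prior count 2 for log2 fold changes; over 0.5 CPM in at least 4 libraries), with Benjamini-Hochberg FDR over all genes and calls under 0.05. NPHS1 in Tet-MIST1 was tested by exact permutation. Lines were compared after joining counts, and levels across lines were scaled together by TMM. Motifs were counted on both strands of GRCh37. Fits were tested on simulated counts. The p-values cover the spread of 4 replicates of each line, and how many clones a line holds is not given in the sources used here. No 2 of 36 replicate pairs agreed within sampling noise (ratio of chi-square to its degrees of freedom 1.39 or more). Named genes were the 4 genes, the 3 largest called changes in each direction per list and line, all listed genes within 250 kb of NPHS1 and KIRREL2, and the 3 genes most like each; CD2AP, PODXL2, WT1 and LHX1 were added after their values were seen. Alternatives were DESeq2 1.42.0, scaling by library size or upper quartile, no filter, a minimum of 10 counts throughout, a replicate block, a joint fit of the 24 libraries, a prior count of 0.125, a longer promoter, Spearman likeness and each library left out. The TGGGAA pair and the test of NPHS1 were added after the data were seen. Promoter sequences of NPHS1 and PODXL are not reported here.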

Additional observations from a re-analysis of the deposited data

Results flagged for a closer look

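Among the 4 libraries of a group, 1 value stood apart from the others in 2 of 24 combinations of gene and group, where chance gives about 1 in 20. KIRREL was at 34.0 CPM in Tet-One Dox replicate 1, against 86.4 to 90.4 CPM in the other 3, in the library that stood apart over all genes. PODXL was at 2.87 CPM in Tet-One Control replicate 3, against 2.27 to 2.32 CPM in the other 3, on 118 reads.

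The Dox response of KIRREL2 differed between Tet-MIST1 and Tet-One by -0.32 (log2, edgeR FDR = 0.0397). The difference passed the threshold in only 6 of 22 alternative fits, with FDR from 0.00666 to 0.202 by edgeR or DESeq2. In 3 cases every Dox library lay above every Control library in one line and below in another. Each includes the Tet-PTF1a response by which the genes were selected, and these differences were not tested. Dox and Control libraries lay apart, in either direction, for 42.3% of genes in Tet-PTF1a, 26.7% in Tet-MIST1 and 2.49% in Tet-One. The share of all genes that lay apart in opposite directions between lines was not computed. The log2 ratio of the mean CPM of KIRREL2 was 3.55 in Tet-PTF1a and -0.34 in Tet-MIST1. That of NPHS1 was 4.07 in Tet-PTF1a and -0.84 in Tet-One, and that of PODXL was 3.01 and -0.41.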

How the results depend on the processing

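In Tet-PTF1a the members kept their direction under every alternative run. Library size scaling moved KIRREL to -0.20 and PODXL to 3.04 (log2), by more than the spread between replicates. The fit of all 24 libraries called 3128 genes there and 1703 in Tet-MIST1, against 6775 and 2812. KIRREL2 in Tet-MIST1 stayed past the threshold in 16 of 16 alternatives (FDR up to 0.00995). PODXL in Tet-MIST1 passed it with DESeq2 (-0.22, FDR = 0.0465), with upper quartile scaling (-0.22, FDR = 0.0492) and without Control replicate 4 or Dox replicate 2, over a range of -0.26 to -0.15 and FDR from 0.0410 to 0.192. The difference of KIRREL2 between Tet-MIST1 and Tet-One was not called with library size (-0.29, FDR = 0.0803) or upper quartile scaling (-0.32, FDR = 0.05005), and ranged from -0.34 to -0.28 with 1 library left out. Calls for that difference over all genes were 499 with DESeq2 and 144 to 1930 with 1 library left out, against 231, and those in Tet-MIST1 were 1436 to 3770 with 1 left out. In Tet-One, with 1 left out, 0 to 1 genes were called, KIRREL ranged from -0.23 to 0.10 and KIRREL2 from -0.055 to 0.0054. The difference of KIRREL between both lines ranged from -0.32 to 0.022. The causes were not tested.

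Equal replicate numbers did not pair the libraries: deviations of same-numbered Control and Dox libraries correlated from -0.24 to 0.18. With the replicate block, 1463 genes were called in Tet-MIST1 and 83 for the difference between lines, where KIRREL2 was at -0.32 (FDR = 0.202). The block changed no other call of the 4 genes.

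The shared lists gave other counts in places. In Tet-PTF1a the fit of all 24 libraries called 1 slit diaphragm gene that fell in place of 5, 2 podocalyxin partners that fell in place of 4, 6 immunoglobulin superfamily genes that rose in place of 13, and 1 neighbour that rose and 0 that fell in place of 3 and 5. Library size scaling gave 3 slit diaphragm genes that fell, 5 podocalyxin partners that rose and 6 neighbours that rose. In Tet-MIST1 the counts that fell ranged from 0 to 5 (slit diaphragm), 0 to 2 (podocalyxin partners), 0 to 4 (immunoglobulin superfamily) and 0 to 2 (neighbours) over 15 alternatives. By Spearman correlation 0 of the 3 genes most like each member were the same. Depth limits NPHS1 most: below 1 CPM its values rest on few reads.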

Other observations

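The ratio of KIRREL2 to NPHS1 per kb of exon differed among the lines. It was 17.6 ± 2.31 in Tet-PTF1a Control and 12.1 ± 0.761 in Tet-PTF1a Dox libraries (SD, n = 4), a comparison chosen with both genes and not tested. In Tet-One it was 14.5 ± 3.11 in Control, from 10.0 to 16.7, and 25.0 ± 3.85 in Dox, from 21.4 to 29.9. The Tet-One groups did not overlap, and the exact permutation test, two-sided, gave p = 0.0286, the smallest that 4 against 4 libraries allow (adjusted 0.0857 over 12 tests). In Tet-MIST1 the ratio was 106 ± 42.0 in Control and 95.4 ± 28.1 in Dox (p = 0.600 by the same exact test), where NPHS1 had at most 27 reads a library.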
